A study of Homo sapiens with 16 samples.

Results

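HCT116 cells in which the long noncoding RNA NORAD was targeted for 96 h were compared with wild-type HCT116 cells of the same time. HCT116 is a human colon cancer cell line. The comparison took the 3 libraries titled knockdown and the 3 titled wild type at 96 h, which are 6 of the 16 libraries of the study, and covered all genes. Polyadenylated RNA was sequenced with a strand-specific protocol from 20000 to 50000 cells. Knockdown was by CRISPR interference, in which a Cas9 without nuclease activity carries a repressor to a promoter, and was switched on with doxycycline at 0.5 µg/ml. Both groups were HCT116 cells kept in the same medium. The labels do not say whether wild-type cultures received doxycycline, whether they carried the repressor without a guide, or whether the knockdown line was a clone. Nor do they say that replicates were grown as separate cultures, and the p-values therefore reflect library-to-library spread alone, which may be technical. The question was which RNAs and transcript forms differ in cells depleted of NORAD.

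NORAD is an abundant cytoplasmic and nuclear RNA that holds many binding sites for the Pumilio proteins, which shorten the life of messenger RNAs carrying the same motif in their 3′ UTR. It has also been described in a nuclear complex with the RNA-binding protein RBMX, topoisomerase TOP1 and splicing factors of the PRP19 complex. Cells lacking NORAD are known for errors in chromosome segregation.

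NORAD (ENSG00000260032, annotated as lincRNA, minus strand, GRCh38 chr20:36045622-36050960) was lowered in part. Its level in CPM, the counts scaled to a common library size, was 181, 184 and 183 in wild-type replicates 1 to 3 and 79.9, 72.7 and 66.1 in the knockdown replicates. The groups did not overlap, and the knockdown mean of 72.9 ± 6.86 CPM (SD, n = 3) was 39.9% of the wild-type mean of 183 ± 1.37 CPM (n = 3). The log2 fold change was -1.33 (SE 0.0978, edgeR adjusted p = 5.25e-08). The same comparison gave 13.6% of wild type at 48 h and 110% at 24 h, and the effect at 96 h differed from that at 48 h by 1.55 on the log2 scale (edgeR adjusted p = 1.25e-06). As RNA was measured in bulk, fewer cells with the RNA and less of it per cell cannot be told apart. The 250 bases before the annotated start of NORAD, the kind of region at which CRISPR interference acts, are shown in RefSeq's GRCh38.p14 sequence, with no capitals because none of the promoter motifs searched for was found in them.

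NORAD, chr20:36050961-36051210, minus strand: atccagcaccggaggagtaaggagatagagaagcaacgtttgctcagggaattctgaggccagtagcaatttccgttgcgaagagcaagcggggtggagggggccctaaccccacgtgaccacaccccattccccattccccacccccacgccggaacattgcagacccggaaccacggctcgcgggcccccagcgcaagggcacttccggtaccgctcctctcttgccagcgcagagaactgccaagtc

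**Figure D1:**
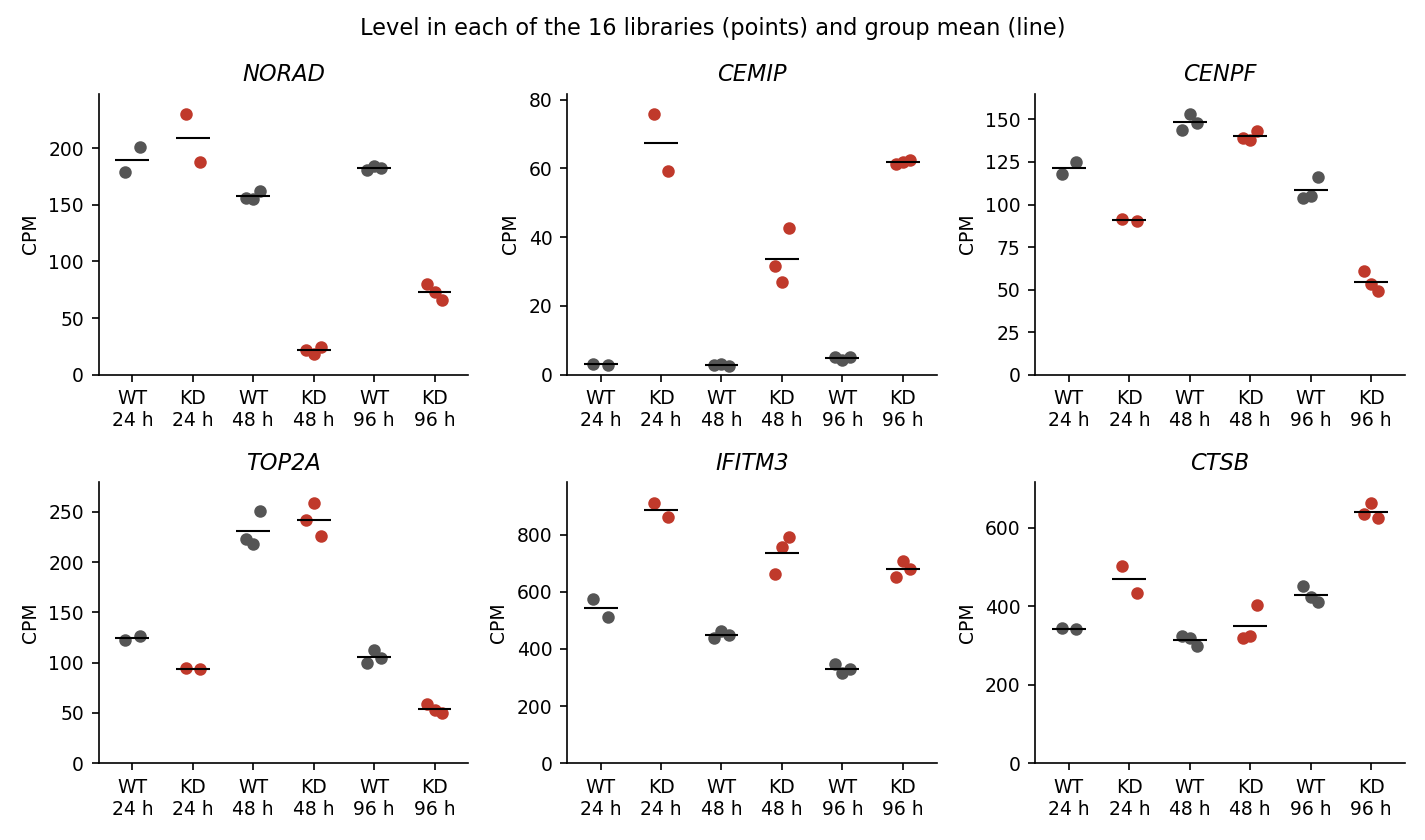
Level in CPM (vertical axis, linear, from 0) of 6 genes in each of the 16 libraries, with wild type (WT) in grey, knockdown (KD) in red and the group mean as a line. At 96 h the knockdown libraries lie on 1 side of the wild-type libraries for each of these genes, and NORAD is lower at 96 h and 48 h but not at 24 h.

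Library totals at 96 h lay between 39835919 and 51853876 estimated counts. Mitochondrially encoded transcripts took 15.5% to 16.6% of counts in wild type and 14.8% to 17.4% in knockdown, and retained-intron transcripts took 4.46% to 4.62% and 4.5% to 4.87%. In a principal component analysis of the 6 libraries, component 1 (31.8% of the variance) separated the groups, with wild type at -31.96 to -19.81 and knockdown at 18.9 to 31.22. Of 8 markers of a colon epithelial line, 7 were well expressed, with summed levels of 5003 to 5514 CPM in wild type and 6054 to 6397 in knockdown. VIL1, the exception, was under 1 CPM in every 96 h library. Of 14 markers of other cell types, 11 were under 1 CPM in every 96 h library. Their sums were 57.7 to 67.3 CPM in wild type and 73.9 to 83.1 in knockdown, most of it COL1A1 at 38.4 to 48.2 CPM and CD68, a lysosomal membrane protein of macrophages and other cells, which rose from 12.5 to 17.2 CPM to 24.8 to 28.7 CPM (log2 fold change 0.87).

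Of 19836 genes tested, 2083 (10.5%) differed at an edgeR adjusted p under 0.05. Of these, 1062 (5.35%) were higher and 1021 (5.15%) lower in the knockdown libraries. The changes were mostly small, with a median size of 0.41 on the log2 scale. A change of at least 2-fold was reached by 56 higher and 28 lower genes. The median over all genes tested was -0.01. Groups did not overlap for 31.8% of all genes tested and for 2076 of the 2083 that differed. Protein-coding genes made up most of the calls, with 6.74% higher and 6.36% lower of 15385 tested, against 0.509% and 0.764% of 1963 lincRNA genes. In a fit of only the 11035 genes with a mean of at least 5 CPM at 96 h, 2643 passed, 1314 higher and 1329 lower. The shares over all genes set beside the lists below are therefore low for lists of well-expressed genes. The number of calls fell by more than 1.5 times when replicate 2 of wild type (1239) or replicate 2 (1334) or 3 (1269) of knockdown was left out, and 444 genes passed when the test asked for a change beyond 1.2-fold.

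**Figure D2:**
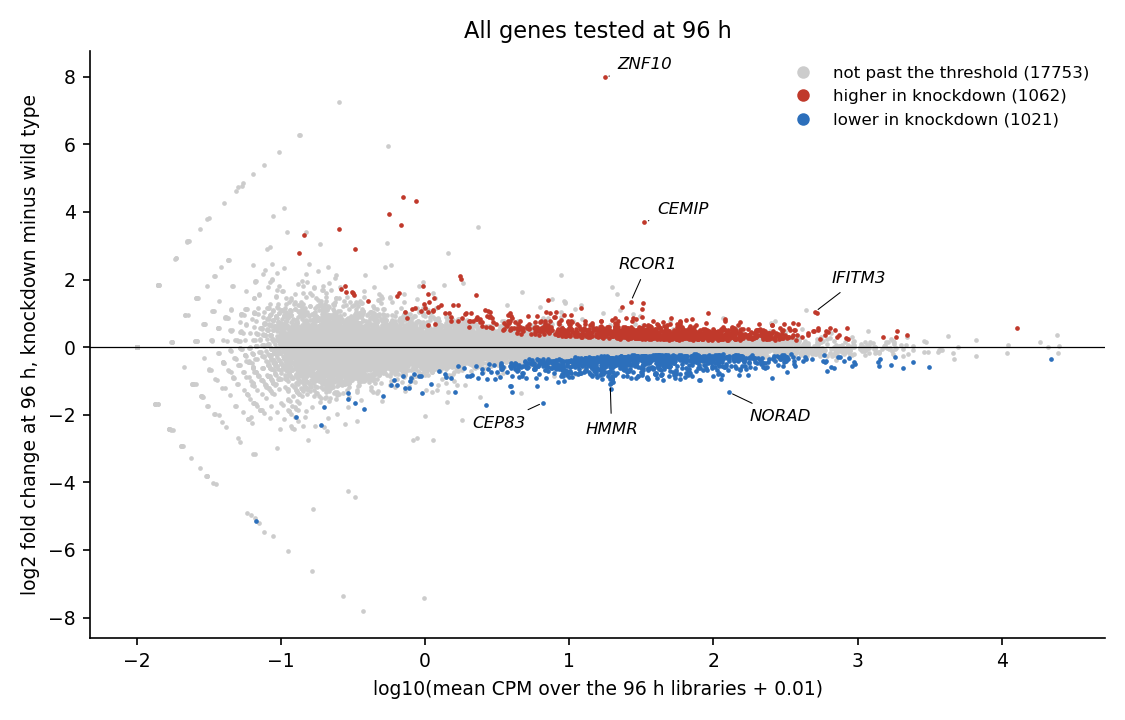
Log2 fold change at 96 h (knockdown minus wild type) against the log10 of the mean CPM over the 6 libraries plus 0.01, for the 19836 genes tested. Red points (1062) are higher and blue points (1021) lower at an edgeR adjusted p under 0.05, and ZNF10 and CEMIP are the highest called points with a mean of at least 5 CPM.

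Among genes with a mean of at least 5 CPM over the 6 libraries, ZNF10 rose most. It encodes a KRAB zinc finger protein (chr12:133130575-133159465, plus strand). It was at 0.146, 0.0805 and 0.192 CPM in the wild-type libraries and at 39.3, 32.6 and 34 CPM in the knockdown libraries (log2 fold change 7.98, edgeR adjusted p = 9.58e-06). The KRAB domain used in CRISPR interference repressors comes from this gene, and in these counts RNA of such a construct and of the gene cannot be told apart. CEMIP, whose product binds and breaks down hyaluronan, was at 5.01, 4.21 and 5.02 CPM in wild type and 61.2, 61.8 and 62.3 CPM in knockdown (3.70, SE 0.15, edgeR adjusted p = 1.51e-10). Both genes were higher by as much at 24 h, when NORAD was not lower (log2 fold changes 8.05 and 4.50).

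The other large rises were of genes with varied roles. GALNT5, an enzyme that starts mucin-type O-glycans, went from 20, 19 and 16.8 CPM to 49.8, 46.3 and 42.9 CPM (1.32, edgeR adjusted p = 4.49e-07). The groups were far apart, and the effect was larger than at 48 h, where the log2 fold change was 0.35 (difference 0.97). ITGAX, an integrin alpha subunit, rose by 1.19 and ECM1, a secreted matrix protein, by 1.15. The adaptor SHC2 rose by 1.39, the chloride channel family member CLIC3 by 1.05, and the small subunit of serine palmitoyltransferase SPTSSB by 1.03. ALDH3A2, a fatty aldehyde dehydrogenase, rose by 1.00, the carnosine synthase CARNS1 by 0.95 and the antisense gene AC008537.4 by 1.01. RCOR1, the CoREST corepressor, rose from 17.4, 15.9 and 12.1 CPM to 43.9, 40.3 and 30.6 CPM (1.34, edgeR adjusted p = 0.0242), a call that was lost when any of 4 single libraries was left out (adjusted p up to 0.0965).

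The largest fall among genes of that level was of CEP83, which anchors centrioles to the membrane when a cilium forms. It was at 10.2, 9.3 and 10.5 CPM in wild type and 3.5, 3.1 and 3.06 CPM in knockdown (log2 fold change -1.64, edgeR adjusted p = 2.17e-07), and its log2 fold change had been -2.10 at 48 h and -4.30 at 24 h. The secretoglobin SCGB3A2 fell by 1.23, the lincRNA AC009055.2 by 1.03 and the antisense gene AP000446.1 by 1.00, with falls of similar size at 24 h and 48 h. The antisense gene AL392023.2 fell by 1.16, a call lost without any of 3 single libraries (edgeR adjusted p up to 0.0628). FAM72D fell by 1.04, but its reads are shared with near-identical copies, so its value is uncertain. MDC1, a scaffold of the DNA damage checkpoint, fell from 23.9, 24.6 and 30.9 CPM to 13.8, 11.7 and 12.4 CPM (-1.06, edgeR adjusted p = 0.000306). It had not differed at 48 h (0.06), and the difference between the effects was -1.13 (edgeR adjusted p = 0.00363). The remaining large falls were of genes of mitosis and the cell cycle.

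Genes of mitosis fell almost without exception. Of 50 tested genes of mitosis and the spindle checkpoint, 49 were lower and none was higher, beside 5.15% lower over all genes, and their median log2 fold change was -0.78. The same 49 had all knockdown libraries below all wild-type libraries, beside 15.6% of all genes. The exception was MAD1L1, a checkpoint protein of the nuclear envelope and kinetochore, named after its value was seen (log2 fold change -0.08, edgeR adjusted p = 0.715). The summed level of the list was 3624, 3759 and 3480 CPM in wild type and 2236, 2252 and 2101 CPM in knockdown. Between 47 and 49 members were lower with any 1 library left out. At 24 h, when NORAD was not lower, 39 of the 50 were already lower and none was higher (median -0.45).

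HMMR, a spindle-associated hyaluronan receptor, was at 24.5, 30.4 and 23.3 CPM in wild type and 12.3, 13.5 and 11.2 CPM in knockdown (log2 fold change -1.08, SE 0.1, edgeR adjusted p = 6.18e-07). CENPF, a large kinetochore protein of late G2 and mitosis, was at 104, 105 and 116 CPM against 61.1, 53.5 and 49.2 CPM (-0.98, SE 0.0758, edgeR adjusted p = 8.03e-08). In both genes every knockdown library was well below every wild-type library. CCNB1, the cyclin that activates CDK1 for entry into mitosis, went from 145, 166 and 135 CPM to 78.3, 78.2 and 74.9 CPM (-0.95, edgeR adjusted p = 2.95e-07). The spindle protein DLGAP5, the kinetochore scaffold KNL1, the checkpoint kinase TTK and the kinetochore motor CENPE fell by 0.95, 0.95, 0.94 and 0.92. AURKB, the kinase of the chromosomal passenger complex, fell by 0.78, and UBE2C, a ubiquitin-conjugating enzyme of the anaphase-promoting complex, by 0.84. BIRC5, the survivin subunit of the passenger complex, fell by 0.77.

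Genes of DNA replication were lower too, with a smaller median change than those of mitosis. Of 50 DNA replication genes tested, 42 were lower and 1 higher, beside 5.15% and 5.35% over all genes, with a median of -0.46. Their summed level was 3720, 3793 and 3686 CPM in wild type and 2732, 2825 and 2591 CPM in knockdown, again without overlap. The helicase subunit CDC45 fell by 0.68, the polymerase alpha subunits POLA1 and PRIM1 by 0.74 and 0.76, and the thymidylate synthase TYMS by 0.64. The gene that rose was POLD4, a small subunit of polymerase delta, named after its value was seen, with 42.6 ± 3.07 CPM in wild type and 68.5 ± 6.47 CPM in knockdown (SD, n = 3 each, a log2 change of 0.69, edgeR adjusted p = 3.82e-05). CCNA2, the cyclin of S phase and G2, went from 55, 68.4 and 53.6 CPM to 32.8, 29.6 and 28.3 CPM (-0.97, edgeR adjusted p = 1.31e-06). Of the 50 replication genes, 40 were already lower and none was higher at 24 h (median -0.43), when NORAD was not lower.

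The counts of called genes in the next 3 lists stand beside 5.15% lower and 5.35% higher over all genes. Of 23 cohesin and condensin genes 15 were lower and none higher (median -0.44). The condensin subunits NCAPG and SMC4 fell by 0.93 and 0.87 and the cohesin protector CDCA5, also called sororin, by 0.71. Of 40 genes of homologous recombination, the Fanconi pathway and the checkpoint, 21 were lower and none higher (median -0.39), among them RAD54L (-0.80), EXO1 (-0.67) and FANCD2 (-0.62). Of 28 cyclins, inhibitors of cyclin-dependent kinases, RB and E2F family genes, 9 were lower and 2 higher. The kinase inhibitor CDKN2C and the transcription factor E2F2 each fell by 0.49. CCND1, the G1 cyclin D1, rose from 420, 361 and 406 CPM to 524, 515 and 482 CPM (0.36, edgeR adjusted p = 0.00424), and CDKN2B, the other member that rose and named after its value was seen, rose by 0.41. Polyadenylated RNA of the replication-dependent histones was low. HIST1H4C fell from 4.28, 6.14 and 5.94 CPM to 2.62, 2.1 and 2.67 CPM and HIST1H2AC rose from 3.46, 3.48 and 3.7 CPM to 6.21, 6.61 and 7.42 CPM, while the other 13 of 15 did not pass. The median of the list was 0.72, with 11 of 15 values above 0 and 7 members with all knockdown libraries above all wild-type libraries, beside 16.2% of all genes. Its summed level was 30.4, 28.6 and 29.5 CPM in wild type and 39.7, 45.4 and 41.9 CPM in knockdown.

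**Figure D3:**
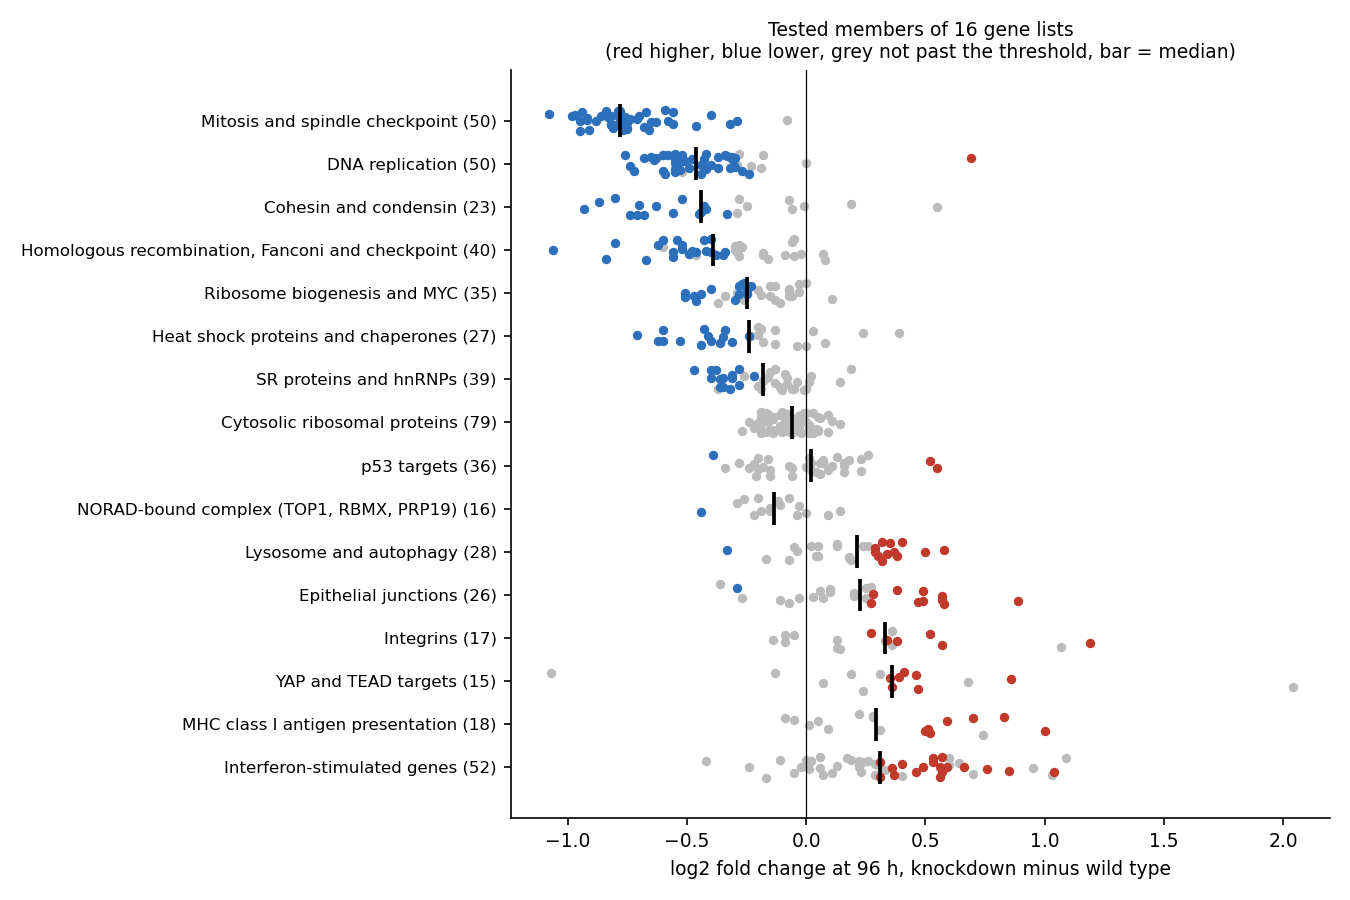
Log2 fold change at 96 h (horizontal axis, knockdown minus wild type) of every tested member of 16 gene lists, with the number tested in brackets. Red and blue points are members higher and lower at an edgeR adjusted p under 0.05 and bars are medians, from -0.78 for mitosis to 0.36 for YAP and TEAD targets.

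The promoters of these genes are shown because the genes moved together and their promoters share known elements. CCAAT boxes and the cell cycle homology region, here searched as TTTGAA, are background knowledge for genes that peak in G2 and mitosis. In the 250 bases before the start in RefSeq (GRCh38.p14), with both strands searched, CCAAT was present in 31 of 43 matched mitosis genes (72.1%), in 25 of 42 replication genes (59.5%) and in 33% of 27305 genes. CCAAT was also present in 9 of 14 class I antigen presentation genes (64.3%), of which some rose and none fell, and in 10 of 39 interferon-stimulated genes (25.6%). TTTGAA was present in 19 of 43 mitosis genes (44.2%), 1 of 42 replication genes (2.38%) and 13.6% of all genes. A match is only a match of letters. Capitals mark CCAAT and TTTGAA or their reverse complements, which can overlap or adjoin, in 4 of the genes that fell most.

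HMMR, chr5:163460382-163460631, plus strand: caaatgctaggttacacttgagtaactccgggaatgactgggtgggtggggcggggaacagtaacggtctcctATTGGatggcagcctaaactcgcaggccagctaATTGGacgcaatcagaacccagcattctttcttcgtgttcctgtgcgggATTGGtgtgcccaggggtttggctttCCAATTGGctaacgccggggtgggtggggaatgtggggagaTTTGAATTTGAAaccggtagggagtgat
CENPF, chr1:214602945-214603194, plus strand: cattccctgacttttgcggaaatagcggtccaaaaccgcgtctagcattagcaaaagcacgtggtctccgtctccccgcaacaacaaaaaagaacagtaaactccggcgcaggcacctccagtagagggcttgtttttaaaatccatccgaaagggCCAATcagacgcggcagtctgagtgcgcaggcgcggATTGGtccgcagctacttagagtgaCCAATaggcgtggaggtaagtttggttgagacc
TOP2A, chr17:40417897-40418146, minus strand: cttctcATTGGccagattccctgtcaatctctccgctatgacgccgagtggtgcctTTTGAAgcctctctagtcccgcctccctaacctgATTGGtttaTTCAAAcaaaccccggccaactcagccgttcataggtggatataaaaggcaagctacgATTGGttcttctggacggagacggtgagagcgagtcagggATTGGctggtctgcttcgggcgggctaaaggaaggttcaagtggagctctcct
CCNA2, chr4:121823884-121824133, minus strand: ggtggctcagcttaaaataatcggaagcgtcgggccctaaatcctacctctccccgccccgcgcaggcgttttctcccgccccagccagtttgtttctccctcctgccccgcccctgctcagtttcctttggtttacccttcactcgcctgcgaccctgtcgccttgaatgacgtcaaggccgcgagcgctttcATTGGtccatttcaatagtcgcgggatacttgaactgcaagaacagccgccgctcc

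HMMR holds 5 copies of CCAAT and 2 of TTTGAA in this window. TOP2A, which encodes the topoisomerase that untangles chromosomes before they separate, holds 4 and 2. CENPF holds 3 of CCAAT and CCNA2 holds 1, and neither holds TTTGAA here.

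Interferon-stimulated genes, which encode antiviral proteins, rose in part. Of 52 tested, 18 were higher and none lower, beside 5.35% higher over all genes, with a median log2 fold change of 0.31. Their summed level was 1701, 1553 and 1551 CPM in wild type and 2251, 2281 and 2199 CPM in knockdown. Between 13 and 17 were higher with any 1 library left out. IFITM3, which blocks the entry of enveloped viruses, went from 346, 316 and 329 CPM to 650, 709 and 678 CPM (1.04, SE 0.0769, edgeR adjusted p = 5.25e-08), though reads can be shared with its close copy IFITM2. IFI6, an endoplasmic reticulum protein, went from 20.7, 19.9 and 18.8 CPM to 34.1, 35.3 and 37.5 CPM (0.85, edgeR adjusted p = 6.24e-06). OASL, a relative of the oligoadenylate synthetases, rose by 0.76, the exonuclease ISG20 by 0.66 and PARP9 by 0.56.

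Class I antigen presentation genes, which interferon also raises, showed 7 higher and none lower of 18 (median 0.30), beside 5.35% higher over all genes. With any 1 library left out 7 or 8 were higher. HLA-B, a class I heavy chain, went from 245, 237 and 225 CPM to 358, 399 and 391 CPM (0.70). HLA-F rose by 0.83, and the peptide-loading factor TAPBP by 0.51. The HLA genes are close copies of each other and vary between people, so the division of reads among them is uncertain. Of 20 targets of NF-kappaB, another pathway of innate immunity, none was higher and 1 was lower, beside 5.15% lower over all genes. The lower member was the mitochondrial superoxide dismutase SOD2 (-0.24), whose call was lost without any of 5 single libraries (edgeR adjusted p up to 0.156).

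The interferon-stimulated response element was searched as GAAA, any 2 bases and GAAA again, on both strands of the same windows. It was present in 20 of 39 interferon-stimulated genes (51.3%), 6 of 14 class I genes (42.9%), 0 of 43 mitosis genes and 3.07% of 27305 genes. The windows of 2 genes that rose are shown with this motif in capitals.

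IFITM3, chr11:320861-321110, minus strand: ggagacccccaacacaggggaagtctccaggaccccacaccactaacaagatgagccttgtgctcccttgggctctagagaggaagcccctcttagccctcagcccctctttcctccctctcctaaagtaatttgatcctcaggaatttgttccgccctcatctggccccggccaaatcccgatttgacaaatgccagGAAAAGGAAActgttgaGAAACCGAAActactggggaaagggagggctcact
IFI6, chr1:27672193-27672442, minus strand: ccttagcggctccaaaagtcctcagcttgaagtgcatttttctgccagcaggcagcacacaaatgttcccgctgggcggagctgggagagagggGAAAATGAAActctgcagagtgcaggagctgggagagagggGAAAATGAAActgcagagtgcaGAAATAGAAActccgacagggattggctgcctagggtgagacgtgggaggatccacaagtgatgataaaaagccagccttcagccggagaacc

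IFITM3 holds 2 copies and IFI6 holds 3.

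**Figure D4:**
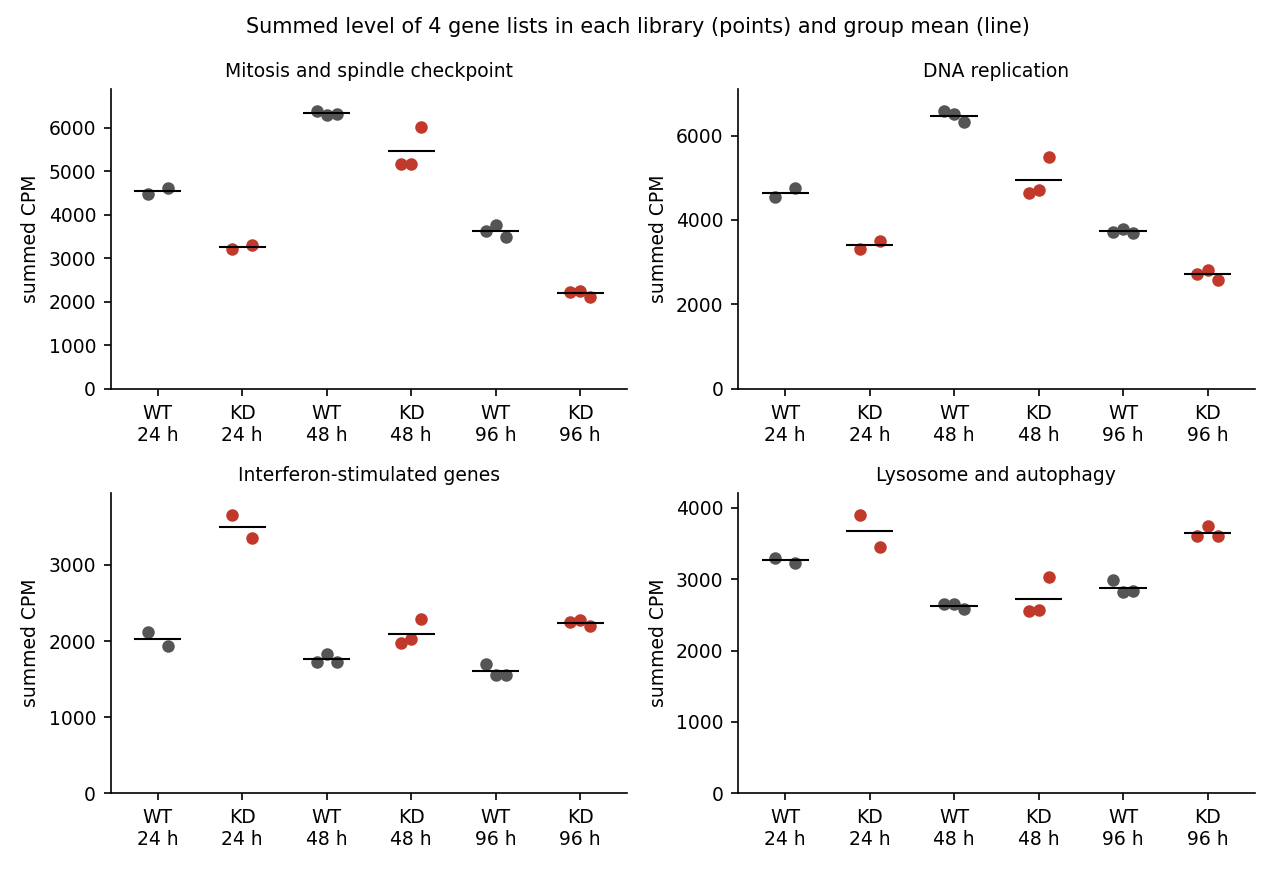
Summed CPM (vertical axis, linear, from 0) of 4 gene lists in each of the 16 libraries, with wild type (WT) in grey, knockdown (KD) in red and the group mean as a line. At 96 h the mitosis and replication sums are lower and the interferon and lysosome sums higher in all 3 knockdown libraries than in any wild-type library.

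Lists of the lysosome, cell contacts and the matrix held more higher than lower members, beside 5.35% higher and 5.15% lower over all genes. Of 28 lysosome and autophagy genes 12 were higher and 1 lower (median 0.21), and 7 were higher without wild-type replicate 3. CTSB, a lysosomal cysteine protease, went from 450, 422 and 411 CPM to 634, 663 and 625 CPM (0.58, edgeR adjusted p = 8.18e-05), and PSAP, the precursor of the saposins, from 599, 551 and 574 CPM to 797, 843 and 795 CPM (0.50, edgeR adjusted p = 0.000299). The aspartic protease CTSD rose by 0.40, and the alpha-galactosidase GLA, the member that was lower, fell by 0.33. Of 26 epithelial junction genes 10 were higher and 1 lower (median 0.23). The tight junction claudin CLDN3 went from 25.5, 21.5 and 19.9 CPM to 38.3, 42.2 and 43.2 CPM (0.89, edgeR adjusted p = 2.54e-06), and CLDN4 and CLDN7 rose by 0.57 and 0.58. The lower member was the epithelial splicing regulator ESRP1 (-0.29), named after its value was seen, with its call lost without any of 4 single libraries (edgeR adjusted p up to 0.147).

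Of 17 integrin genes 6 were higher, beside 5.35% of all genes, and none lower (median 0.33), and 3 were higher without replicate 3 of wild type or replicate 1 or 2 of knockdown. ITGA3, a laminin receptor subunit, went from 555, 486 and 524 CPM to 768, 787 and 770 CPM (0.57, edgeR adjusted p = 1.98e-05). Of 25 genes of the mesenchymal state and matrix 8 were higher and 1 lower (median 0.24), and 5 were higher without wild-type replicate 2. They included the metalloproteinase inhibitor TIMP1, which went from 210, 191 and 189 CPM to 307, 324 and 305 CPM (0.67). The lower member was the collagen COL17A1 (-0.36), named after its value was seen, whose call was lost when any library was left out (edgeR adjusted p up to 0.191). Of 15 YAP and TEAD targets, genes that respond to cell shape and density, 7 were higher and none lower (median 0.36), with AMOTL2 at 0.86 and CYR61 at 0.47. In the list 5 were higher without wild-type replicate 1, 3 without wild-type replicate 2 or 3 or knockdown replicate 2, and 4 without knockdown replicate 1 or 3. The 18 keratins gave 2 higher and 2 lower members. KRT19, at a level near that of KRT8 in wild type, was at 1778, 1582 and 1656 CPM in wild type and 1938, 2078 and 2097 CPM in knockdown (0.29, edgeR adjusted p = 0.0251), and its call was lost without any of 4 single libraries (up to 0.129). KRT13 fell by 0.57, a call lost without either of 2 libraries (edgeR adjusted p up to 0.0526). KRT17 at 0.104 to 0.601 CPM and KRT6A at 0.0523 to 0.584 CPM also passed, in opposite directions, and lost their calls without 5 and 2 single libraries.

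Some genes of protein synthesis and folding were lower, beside 5.15% lower over all genes and 6.36% of protein-coding genes. When genes with a mean of at least 5 CPM were fitted alone, 1329 of 11035 were lower. Of 35 genes of ribosome biogenesis and MYC, 16 were lower and none higher (median -0.25), and leaving out replicate 3 of wild type or replicate 2 or 3 of knockdown left 8, 9 or 5 lower. MYC, the transcription factor that drives many of these genes, went from 438, 416 and 424 CPM to 293, 302 and 302 CPM (-0.51, edgeR adjusted p = 0.00695). The nucleolar proteins FBL and NPM1 fell by 0.47 and 0.51. Of 79 cytosolic ribosomal protein genes none passed in either direction (median -0.06, from -0.27 to 0.14). Of 71 mitochondrial ribosomal protein genes 10 were lower and 1 higher, and 2 were lower when wild-type replicate 2 or knockdown replicate 3 was left out and 6 when knockdown replicate 2 was. The higher member was MRPL55 (0.35), named after its value was seen, and its call needed replicate 2 of each group (edgeR adjusted p up to 0.135 without them). Of 27 heat shock proteins and chaperones 14 were lower and none higher (median -0.24), and 9 were lower without wild-type replicate 2 or knockdown replicate 3. The mitochondrial chaperonin pair HSPD1 and HSPE1 fell by 0.71 and 0.60, and the cytosolic chaperone HSP90AA1 by 0.62.

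Of 39 SR protein and hnRNP genes, which guide splicing, 14 were lower, beside 5.15% of all genes, and none higher (median -0.18), and 9 were lower without knockdown replicate 3. For this list and the others of this paragraph, the fit of genes with a mean of at least 5 CPM gave 1329 lower of 11035. HNRNPM fell by 0.47 and SRSF1 by 0.40. Of 30 stress genes, those of the unfolded protein response and the integrated stress response, 7 were lower and 2 higher (median 0.01). The serine and asparagine synthesis enzymes PSAT1 and ASNS fell by 0.46 and 0.41, and the phosphatase subunit PPP1R15A rose by 0.49. The other higher member, the chaperone-like CRELD2 (0.25), was named after its value was seen and lost its call without any of 5 single libraries (edgeR adjusted p up to 0.15). Of 20 cytosolic aminoacyl-tRNA synthetases, which charge tRNAs with amino acids, 5 were lower, namely FARSB (-0.49), IARS (-0.45), EPRS (-0.41), DARS (-0.31) and YARS (-0.29). In the list, 3 were lower when replicate 2 of either group was left out and 2 when knockdown replicate 3 was, and scaling by total count, by upper quartile or by abundance gave 9, 9 or 10. The call of FARSB was lost when any library was left out (edgeR adjusted p up to 0.181), that of DARS without any of 3 (up to 0.129) and that of YARS without knockdown replicate 3 (0.0501). Of 30 proteasome subunits 5 were lower, namely PSMA2 (-0.32), PSMA3 (-0.27), PSMA4 (-0.33), PSMD1 (-0.30) and PSMD14 (-0.28), and 1 was lower without replicate 2 of wild type or replicate 2 or 3 of knockdown. Scaling by total count, by upper quartile or by abundance gave 11, 11 or 12 lower subunits. PSMA2 lost its call without any of 3 single libraries, and PSMA3, PSMA4 and PSMD14 without any of 4 each (edgeR adjusted p up to 0.3). Of 23 NRF2 targets and metallothioneins 4 were lower, namely the glutathione synthesis subunits GCLM (-0.61) and GCLC (-0.30), the cystine transporter SLC7A11 (-0.41) and the metallothionein MT1E (-0.31). In the list, 1 was lower when replicate 2 of either group was left out and 2 when wild-type replicate 1 or knockdown replicate 3 was. GCLC and MT1E lost their calls without any of 5 single libraries each and SLC7A11 without 2 (edgeR adjusted p up to 0.202, 0.268 and 0.113).

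Of 25 sterol genes 7 were lower and 1 higher, beside 5.15% and 5.35% over all genes, and 2 to 4 were lower when any of the 6 libraries was left out. The member that rose was the sterol reductase TM7SF2, from 48.1, 47 and 46.1 CPM to 79.7, 86.4 and 81.1 CPM (0.81, edgeR adjusted p = 9.51e-07), which was as much higher at 48 h (0.84) and 24 h (0.80). In the fatty acid list of 14, SREBF1, the regulator of fatty acid synthesis, rose by 0.68, and the elongases ELOVL1 (0.25) and ELOVL5 (-0.28) passed but lost their calls without any of 4 single libraries each (edgeR adjusted p up to 0.145 and 0.214). In the list of 30 hypoxia and glycolysis genes 5 were lower and 1 higher, with LDHA, lactate dehydrogenase A, going from 795, 851 and 706 CPM to 492, 510 and 547 CPM (-0.60, edgeR adjusted p = 0.000562) and PKM, pyruvate kinase, rising by 0.49. The other lower members were PDK1 (-0.43), a kinase that inhibits pyruvate dehydrogenase, the mitophagy receptor BNIP3 (-0.36) and the glycolytic enzymes PGAM1 (-0.35) and ENO1 (-0.28). Of the list 1 was lower without wild-type replicate 1 or 2 or knockdown replicate 1, 2 without knockdown replicate 2 and 3 without knockdown replicate 3, and 3 with median-ratio scaling. PDK1, BNIP3 and ENO1 lost their calls without any of 5 single libraries each and PGAM1 without any of 4 (edgeR adjusted p up to 0.152, 0.194, 0.161 and 0.0833). Of 41 nuclear-encoded respiratory chain genes 1 was higher and none lower (median -0.04), and the call of that gene, the complex III subunit UQCRFS1 (0.24), was lost without any of 4 single libraries (edgeR adjusted p up to 0.157). Of 13 mitochondrially encoded messenger RNAs MT-CYB rose by 0.58 and MT-CO1 fell by 0.36, the latter call lost without knockdown replicate 2 (edgeR adjusted p = 0.0703), and the other 11 did not pass.

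Targets of p53, the tumour suppressor activated by DNA damage, were called no more often than all genes tested. Of 36 tested, 2 were higher and 1 lower, beside 10.5% called over all genes, and the median was 0.02. Of protein-coding genes 6.74% were higher and 6.36% lower. BBC3, which encodes the pro-apoptotic protein PUMA, went from 51.5, 48.8 and 50.2 CPM to 66.9, 77.6 and 76.4 CPM (0.55, edgeR adjusted p = 8.25e-05). The membrane protein CD82 rose by 0.52, and DDB2, which recognises ultraviolet damage in DNA, fell by 0.39. Of 25 immediate early genes 4 were higher and 1 lower. EGR3 went from 5.34, 4.99 and 6.1 CPM to 10, 10.4 and 9.75 CPM (0.88, edgeR adjusted p = 0.00078) and EGR1 and FOSB rose by 0.41 and 0.63, calls lost without wild-type replicate 2 (edgeR adjusted p = 0.0606 and 0.0508). The growth factor HBEGF rose by 0.33, a call lost when any library was left out (edgeR adjusted p up to 0.137), and the lower member was MYC.

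The counts of the lists in this paragraph stand beside 10.5% called over all genes, 5.35% higher and 5.15% lower. Of 20 beta-catenin targets 3 were lower, EPHB2, MYC and the ubiquitin ligase RNF43 (-0.24), and CCND1 was higher. RNF43 lost its call without any of 5 single libraries (edgeR adjusted p up to 0.189), and EPHB2, a receptor for ephrins, went from 41.7, 34.6 and 38.5 CPM to 18.6, 21.4 and 20.7 CPM (-0.92, edgeR adjusted p = 2.92e-06). In the vitamin D list of 10, CYP24A1, the enzyme that inactivates vitamin D, went from 192, 188 and 191 CPM to 120, 115 and 119 CPM (-0.69, edgeR adjusted p = 5.98e-06), and SERPINB1 rose by 0.47. Of 22 apoptosis regulators BBC3 and BCL2L1 (0.36) were higher and BIRC5 lower, the call of BCL2L1 lost without any of 5 single libraries (edgeR adjusted p up to 0.16). Of 20 feedback genes of ERK signalling DUSP6 (0.30) and EPHA2 (0.45) were higher and EREG (-0.31) lower, calls lost without 6, 4 and 5 single libraries. Of 16 intestinal differentiation genes only the carbonic anhydrase CA2 passed (-0.53, lost without wild-type replicate 2, edgeR adjusted p = 0.0574), and of 15 snoRNA hosts and well-known lncRNAs only SNHG12 (-0.34, lost without any of 3 single libraries, up to 0.0962).

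Among genes for proteins described with NORAD, the share called was near the 10.5% over all genes, while 6.74% of protein-coding genes were higher and 6.36% lower. Of 16 genes of the TOP1, RBMX and PRP19 complex, 1 was lower, the chaperone HSPA8 (-0.44), and the median was -0.14. TOP1 was at 315, 306 and 326 CPM in wild type and 325, 308 and 286 CPM in knockdown (-0.04, edgeR adjusted p = 0.802), and these ranges overlapped. RBMX was at 221, 237 and 218 CPM against 208, 196 and 190 CPM (-0.19, edgeR adjusted p = 0.162) and PRPF19 at 155, 150 and 154 CPM against 128, 138 and 127 CPM (-0.22, edgeR adjusted p = 0.0842). Both had groups that did not overlap but did not pass the test. Of 17 genes in the list of Pumilio proteins and partners, the deadenylase subunits CNOT7 and CNOT9 were lower (-0.28 and -0.27) and lost their calls without 3 and 4 single libraries (edgeR adjusted p up to 0.154 and 0.0714). The list also holds BRF1, which is not known as a Pumilio partner and did not pass. PUM2 had a log2 fold change of -0.15 and did not pass (edgeR adjusted p = 0.274).

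Of 11 topoisomerase and adduct repair genes 3 were lower, beside 5.15% lower over all genes. TOP2A went from 100, 113 and 105 CPM to 58.7, 53 and 49.8 CPM (-0.98, SE 0.0799, edgeR adjusted p = 1.35e-07). TDP1, which removes stalled topoisomerase from DNA, and PARP1, which binds DNA breaks, fell by 0.34 and 0.27, calls lost without 2 and 5 single libraries (edgeR adjusted p up to 0.0992 and 0.209). Of 23 genes that neighbour NORAD on chromosome 20, 4 were higher and 2 lower (median -0.02), beside 5.35% and 5.15% over all genes. The myosin light chain gene MYL9 rose by 0.53 and SCAND1 by 0.40, and the kinetochore gene DSN1 fell by 0.42. SPAG4 (0.49), ERGIC3 (0.25) and the RB relative RBL1 (-0.42) lost their calls without 2, 4 and 4 single libraries.

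Messenger RNAs with Pumilio motifs were compared with the rest. The motif was searched as UGUANAUA in the annotated 3′ UTRs of the tested genes. Of 11249 genes without it, 7.91% were higher and 5.98% lower, with a median of 0.01. Of 3797 genes with at least 1 copy, 3.74% were higher and 7.85% lower, with a median of -0.04. The median was -0.03 with 1 copy, -0.05 with 2 and -0.07 with 3 or more. UTR length moved with the number of copies, with a median of 710 bases without the motif and 4434 bases with 3 or more. Within classes of UTR length, the medians with and without the motif were -0.05 (272 genes) and 0.01 (4445 genes) up to 500 bases, -0.01 and 0.02 up to 1000 bases and -0.03 and 0.01 up to 2000 bases. They were -0.04 and -0.01 up to 4000 bases and -0.05 (990 genes) and -0.04 (502 genes) above that. In the same order of classes, 15.8%, 9.56%, 8.74%, 5.73% and 6.67% of genes with the motif were lower, against 6.37%, 6.3%, 5.51%, 5.69% and 4.18% of genes without it. The median was thus lower with the motif in all 5 classes, by least in the longest. The part of UTR length in the difference was not tested further. At 48 h the medians with 0, 1, 2 and 3 or more copies were 0.00, -0.03, -0.05 and 0.01. At 24 h they were -0.05, -0.06, -0.06 and -0.05.

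The genes changed at 96 h were set beside the other times, which share no library with it. Of the 1062 genes higher at 96 h, 536 (50.5%) were also higher at 48 h, which is 18.3% of the 2928 higher then (14.8% of all genes), and 423 (39.8%) at 24 h, which is 41.5% of the 1019 higher then (5.14%). Of the 1021 lower genes, 649 (63.6%) were lower at 48 h, 17.7% of 3663 (18.5%), and 699 (68.5%) at 24 h, 28.4% of 2465 (12.4%). Of the higher genes 426 and of the lower genes 223 passed in the same direction at neither time. At 24 h NORAD itself was not lower.

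**Figure D5:**
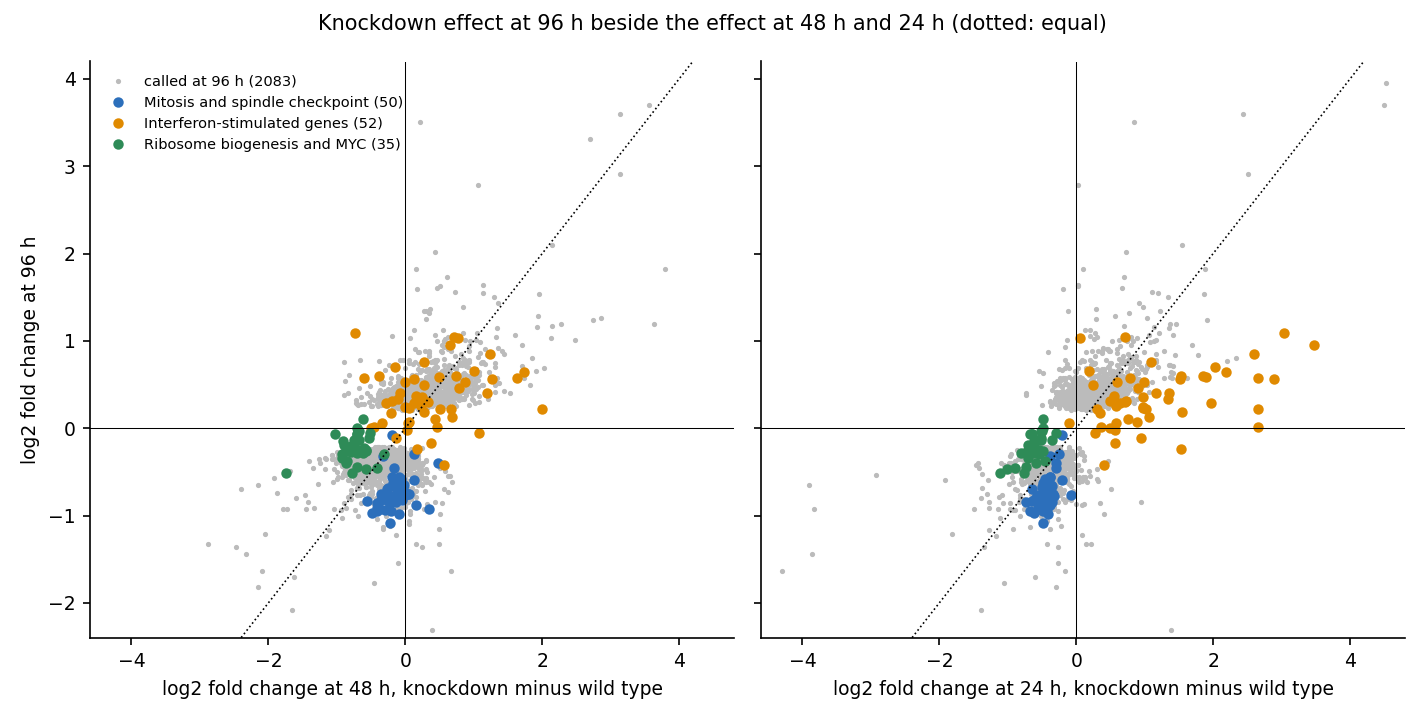
Log2 fold change at 96 h (vertical axis) against that at 48 h (left) and 24 h (right), knockdown minus wild type, for the 2083 genes called at 96 h (grey) and for all tested members of 3 lists. The dotted line marks equal effects, and 5 called genes lie outside the axes of each panel. Most mitosis genes lie below the line in the left panel and most interferon genes to the right of it in the right panel.

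The knockdown effect differed between 96 h and 48 h for 2171 genes (10.9%), with 1337 (6.74%) higher and 834 (4.2%) lower at 96 h. The split depends on scaling: 61.6% of these were higher with TMM, 29.8% with total counts, which moved the median of all genes to -0.18, and 49.8% with abundance-dependent scaling. Knockdown replicate 3 at 48 h stood apart from its group, with a summed mitosis level of 6017 CPM against 5170 and 5174 CPM in replicates 1 and 2, and without it 5252 genes differed. Leaving out wild-type replicate 1, wild-type replicate 2 or knockdown replicate 1 of 48 h gave 1351, 1386 or 1397, and leaving out wild-type replicate 3 or knockdown replicate 2 of 96 h gave 1354 or 1268.

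Mitosis genes were lowered more at 96 h than at 48 h. For 41 of the 50 the effect was lower at 96 h and for none higher, with 47 and 47 under total-count and abundance-dependent scaling and 44 without knockdown replicate 3 of 48 h. The count was 32 without knockdown replicate 3 of 96 h, 33 without wild-type replicate 2 of 48 h and 35 with the replicate block. At 48 h 18 of them were lower and 2 higher. CENPF, a member, was -0.09 at 48 h, and the difference was -0.90 (edgeR adjusted p = 2.43e-05). TOP2A, from the topoisomerase list, was 0.07 at 48 h, and the difference was -1.05 (edgeR adjusted p = 9.21e-06). The summed level of the mitosis list was 6284 to 6379 CPM in wild type at 48 h and 3480 to 3759 CPM in wild type at 96 h. Ribosome biogenesis genes went the other way, with the effect less negative at 96 h for 28 of 35 and more negative for none, and 21 under either other scaling. All 35 were lower at 48 h, and the effect on MYC was -1.74 then. Keratins had a higher effect at 96 h for 11 of 18, with 9 and 10 under those scalings and 8 without knockdown replicate 2 of 96 h.

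By the naming rule, the genes whose effect was higher at 96 h than at 48 h by most were CYP24A1 (1.71), ADAMTS14 (1.65), ALDH1A3 (1.59), FKBP10 (1.56) and NORAD itself. ADAMTS14, a protease that trims procollagen, was at 28.9, 27.5 and 28.2 CPM in wild type and 45.1, 48.4 and 49.5 CPM in knockdown at 96 h, a rise of 0.76 after a log2 fold change of -0.90 at 48 h. ALDH1A3, which makes retinoic acid, and FKBP10, a prolyl isomerase of the endoplasmic reticulum, did not pass at 96 h (0.16 and -0.29). Effects lower at 96 h included those of TRIML2 (-1.33), CENPE (-1.27), CCDC88A (-1.18) and DUOX2 (-1.16). The call of DUOX2 at 96 h itself was lost without any of 5 single libraries (edgeR adjusted p up to 0.198).

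Between 96 h and 24 h the effect differed for 418 genes (2.11%), with 332 (1.67%) higher and 86 (0.434%) lower at 96 h. Here too the split depends on scaling, with 79.4% of calls higher by TMM and 22.6% by total counts. The count was 65 to 242 without wild-type replicate 1 or 2 or knockdown replicate 1 or 2 of 24 h, or without wild-type replicate 2 or 3 or knockdown replicate 2 or 3 of 96 h. Interferon-stimulated genes were raised less at 96 h than at 24 h, where 40 of 52 were higher. The effect was lower at 96 h for 18 and higher for none, with 28 and 21 lower under total-count and abundance-dependent scaling, and 8 without either wild-type replicate of 24 h. IFI6 had a log2 fold change of 2.60 at 24 h. Of the 50 mitosis genes, 3 had a lower effect at 96 h than at 24 h and none a higher one. Under total-count and abundance-dependent scaling 19 and 15 were lower, and 0 were without wild-type replicate 1 or knockdown replicate 2 of 24 h. Of the 50 replication genes, none had a lower effect at 96 h than at 24 h and 1 had a higher one. The cytosolic ribosomal protein genes, of which 76 of 79 were lower at 24 h, had a higher effect at 96 h for 14, for none under total-count or abundance-dependent scaling and for 43 with DESeq2.

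Transcript usage, the share of a gene's counts held by each of its transcripts, changed in few genes. Of 8743 genes tested with limma, 4 (0.0458%) passed, and 1 to 10 did when a library was left out. In GNB3, a G protein subunit, the retained-intron transcript GNB3-205 went from 52.6%, 47.1% and 58.4% to 83.8%, 80.9% and 76.5% (limma adjusted p = 0.0348). RTL9 switched between RTL9-201 and RTL9-203 (limma adjusted p = 0.0271) and the lincRNA PURPL lost PURPL-202 (limma adjusted p = 0.04), but these genes had only 13 to 36 and 12 to 33 counts in a library. NOP56, a nucleolar protein and the next by p, did not pass (limma adjusted p = 0.0949), though NOP56-216 held 23.9% to 24.9% in wild type and 12.7% to 14% in knockdown.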

How the data were processed

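RNA of HCT116 cells was sequenced in 16 libraries, of which the 6 of 96 h carry the comparison. Estimated counts per transcript were made by the authors with kallisto and deposited as whole numbers, per the submitters' processing notes, which also name DESeq2 and hg19 without versions. Of 166096 transcripts, 156584 matched GENCODE 29 and were summed to 31496 genes, and 2.75% to 3.4% of counts per library went unmatched. Coordinates are GRCh38, from that annotation. kallisto divides reads among near-identical transcripts by estimate, so close copies are uncertain. The 96 h libraries had at least 39835919 counts, and each arm held 3 libraries. Whether depth or the number of libraries limits a value was not tested.

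The main test was edgeR 4.0.16 (R 4.3.3) by quasi-likelihood with TMM scaling, filterByExpr, all 16 libraries in 6 groups sharing 1 spread, and Benjamini-Hochberg adjustment at 0.05 over 19836 genes. Differences between times were contrasts of the same fit. Replicates differed beyond counting noise (chi-square per degree of freedom 7.84 to 56.1), so none was counted as a copy of another. Transcript usage was tested with limma 3.58.1 on log ratios between a transcript and its gene's other transcripts, 0.5 added, for transcripts with at least 10% of a gene of at least 20 counts on average. Alternatives were other scalings, filters, DESeq2 1.42.0, a minimum fold of 1.2, a replicate block and each library left out. Scripts were tested on simulated data. The 43 gene lists (1199 symbols, 1122 tested) and the members were chosen with earlier results of these data known. Named were NORAD, the 15 largest rises and 15 largest falls at a mean of at least 5 CPM without overlap, the 5 largest differences from 48 h in each direction, the 5 genes with the lowest p for usage and, from each list, at most 6 members of lowest p or all members of lists of at most 16. List members named for contrast outside that rule were chosen after their values were seen. Some genes that the rule names are not reported here.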

Additional observations from a re-analysis of the deposited data

Results flagged for a closer look

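Among the genes named above, some had a knockdown effect at 96 h that differed from that at 48 h by the test of the difference (edgeR adjusted p under 0.05 over all genes), given here as the difference in log2 fold change. The effect was higher at 96 h than at 48 h for CYP24A1 (1.71), ADAMTS14 (1.65), ALDH1A3 (1.59), FKBP10 (1.56), NORAD (1.55), KRT13 (1.35), MYC (1.23), CCND1 (1.01), KRT19 (1.01), GALNT5 (0.97), EPHB2 (0.86), CLDN4 (0.78), CD68 (0.67), MRPL55 (0.64), CLDN7 (0.63), SERPINB1 (0.61) and BCL2L1 (0.59). It was also higher at 96 h for BBC3 (0.56), RNF43 (0.56), CLDN3 (0.53), SREBF1 (0.50), OASL (0.49), ITGA3 (0.44), PARP9 (0.43), CTSB (0.43), PSAP (0.42), MYL9 (0.42) and RBMX (0.40). The effect was lower at 96 h than at 48 h for HIST1H4C (-1.64), TRIML2 (-1.33), CENPE (-1.27), CCDC88A (-1.18), DUOX2 (-1.16), MDC1 (-1.13), SPTSSB (-1.10), ITGAX (-1.08), CDKN2C (-1.08), TOP2A (-1.05), SMC4 (-1.05), KNL1 (-1.02), CENPF (-0.90), HMMR (-0.86), NCAPG (-0.84), EGR1 (-0.77) and DLGAP5 (-0.74). It was also lower at 96 h for TTK (-0.64), AURKB (-0.63), UBE2C (-0.60), POLA1 (-0.57), CCNB1 (-0.53), SLC7A11 (-0.52), CCNA2 (-0.49), FANCD2 (-0.47), BIRC5 (-0.46), HSP90AA1 (-0.44), CDCA5 (-0.39), CDC45 (-0.38), RAD54L (-0.37) and DSN1 (-0.37).

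The same test against 24 h, where groups hold 2 libraries each, gave fewer. The effect was higher at 96 h than at 24 h for EPHB2 (2.91), CEP83 (2.66), FKBP10 (2.59), CD68 (1.28), FOSB (1.12), POLD4 (0.85), PPP1R15A (0.80), CLDN4 (0.76), BBC3 (0.72), ADAMTS14 (0.71), EGR1 (0.64), MRPL55 (0.59), CLDN7 (0.58), FBL (0.55), ITGA3 (0.49), KRT19 (0.49), TOP1 (0.48) and TIMP1 (0.47). The effect was lower at 96 h than at 24 h for IFI6 (-1.75), NORAD (-1.46), PARP9 (-0.95), KNL1 (-0.69), CDKN2C (-0.68), HMMR (-0.60), CENPF (-0.57) and TOP2A (-0.56).

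Both sets share the 96 h libraries, and both depend on scaling. Of all 418 genes that differed from 24 h, 156 also passed under total-count scaling and 184 under abundance-dependent scaling. For the 2171 that differed from 48 h these numbers were 1465 and 1347. Small differences above may therefore not hold under another scaling. These genes were named for other reasons, mostly their change at 96 h, so their number is no measure of how many effects differ.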

How the results depend on the processing

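The direction of each named gene was kept under every setting run except for TOP1, at 0.00 without knockdown replicate 3 (range -0.09 to 0.00). List medians whose range without 1 library crossed 0 were those of p53 targets (-0.01 to 0.04), intestinal genes (-0.10 to 0.01), keratins (-0.10 to 0.10), NORAD neighbours (-0.04 to 0.10), mitochondrially encoded RNAs (-0.07 to 0.05), beta-catenin targets (-0.01 to 0.10), stress response genes (-0.01 to 0.06) and markers of other cell types (-0.02 to 0.13). Of 148 genes named and called, 47 lost the call without some library, 10 under another scaling, 0 with DESeq2, 34 with the block and 72 against a minimum of 1.2-fold. With only the 96 h libraries 3450 genes passed, 1934 of them higher, and against a minimum of 1.2-fold 444 did, 199 higher and 245 lower. Without 1 library the counts were 1239 to 1878, with 603 to 957 higher and 587 to 921 lower. The cause of these shifts was not tested.

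For 96 h against 48 h, total-count scaling gave 631 higher and 1484 lower effects, and abundance-dependent scaling 862 higher. Without 1 library 1268 to 5252 differed, 765 to 3104 higher and 503 to 2148 lower. For 96 h against 24 h, total-count scaling gave 70 higher and 240 lower, abundance-dependent scaling 247 (123 higher) and DESeq2 805 (647 higher, 158 lower). Without 1 library 65 to 337 differed, 43 to 275 higher and 22 to 62 lower. Transcript usage gave 11 genes at a minimum share of 5%, 12 with diffSpliceDGE and 1 to 10 without 1 library.

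Same-numbered libraries at 96 h did not deviate together (correlations -0.0388, 0.00133 and 0.062). No pairing by number was seen, but with so few libraries this cannot exclude that they were handled together. With the replicate block 1437 genes changed at 96 h, 716 higher and 721 lower. The block gave 1159 differences from 48 h (740 higher, 419 lower), 120 from 24 h (86 higher, 34 lower) and 0 genes for usage.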
